A study of Mus musculus with 6 samples.

Results

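Chitinases are enzymes of glycoside hydrolase family 18 that cut chitin, the N-acetylglucosamine polymer of fungal walls, insect cuticle and nematode eggs. Mammals do not make chitin, but they keep active chitinases and a group of chitinase-like proteins that have the same fold, bind sugars and do not cut them. The 6 mouse genes described here were chosen by symbol and were all found among the 25124 gene entries measured. They are the chitinase-like genes Chil3 (Ym1), Chil4 (Ym2) and Chil1 (BRP-39), the chitinases Chia1 (acidic mammalian chitinase) and Chit1 (chitotriosidase), and Chid1, a more distant member of the family. Chil3 is a standard marker of alternatively activated mouse macrophages, the state that interleukin-4 (IL-4) induces through the transcription factor STAT6, and its protein is also known as a secreted crystal-forming lectin of the inflamed lung.

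Polyadenylated RNA was sequenced from bone marrow-derived macrophages of wild-type C57BL/6 mice aged 8 weeks. Marrow was cultured for 7 days with 20 ng/ml macrophage colony-stimulating factor (M-CSF), the growth factor that turns marrow precursors into macrophages. The M2 group (3 libraries) was then given 10 ng/ml IL-4 with 20 ng/ml M-CSF, the M0 group (3 libraries) only 20 ng/ml M-CSF, and RNA was taken 4 h later in both. The labels do not say whether libraries of a group came from separate mice or cultures, so that p-values measure only the spread between these libraries, which may be technical.

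Levels are given as deposited, under the label TPM, the unit of transcript abundance that is scaled for length and depth and lets genes be compared. The deposited values summed to 542749 to 543854 in M2 libraries and 548160 to 553186 in M0 libraries. These sums are not the fixed total that the unit implies, so that a level here is not a share of that total. The cause was not tested. Behind the levels stood 16913185 to 19019896 reads per library, and 1 read in a 1-kb transcript was worth 0.0610 to 0.0700 TPM. The variance between M2 replicates was 1.52 to 1.70 times that of counting (chi-square per degree of freedom). The same measure was 2.24 between M0 replicates 1 and 3 and 9.05 and 10.2 between M0 replicate 2 and these, against 113 to 138 between libraries of different groups. All 6 macrophage markers were tested: Csf1r (912 TPM in M2 and 674 TPM in M0 cells), Cd68 and Mertk rose, Lyz2 (12051 TPM in M2 and 13744 TPM in M0 cells) and Itgam fell, and Adgre1 (F4/80; 534 TPM in M2 and 536 TPM in M0 cells) did not pass. After median scaling 4 rose, Adgre1 among them, and the 2 falls were lost. Of all tested genes 17.7% rose and 45.3% fell, against 28.6% and 28.5% after median scaling. Bulk libraries cannot tell fewer cells of a type from less RNA per cell.

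The coding sequences show the split between enzymes and lectins. In family 18 chitinases a glutamate in a short Asp-rich motif donates the proton that cuts the sugar chain. The stretches below, read from GENCODE M21 transcripts on GRCm38 (mm10), end with the codon at that place, in capitals.
Chia1: gatggactggacctggactggGAA
Chit1: gatggccttgaccttgactggGAG
Chil3: gatggcctcaacctggactggCAG
Chil4: gatggcctcaacctggactggCAG
Chil1: gatgggctggatctcgcctggCTC
Chia1 (chr3:106122448-106122471, plus strand) and Chit1 (chr1:134145334-134145357, plus strand) hold a glutamate codon there. Chil3 (chr3:106160428-106160451, minus strand) and Chil4 (chr3:106210533-106210556, minus strand) have the same 24 bases as each other, ending in a glutamine codon. Chil1 (chr1:134185231-134185254, plus strand) has a leucine codon. No such stretch was placed in Chid1.

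Chil3 and Chil4 are near-copies, which bears on how far their reads can be told apart. Their coding sequences, 1194 and 1206 bases long, differ at 55 of 1194 aligned bases, an identity of 94.4% over the alignment. Chil3 is 63.9% and Chil4 64.3% identical to Chia1, Chia1 is 58.4% identical to Chit1, and Chid1 is 46.0% to 49.1% identical to the others. Of the 1490 runs of 50 bases in the Chil3 transcript, 275 (18.5%) are also in Chil4, and the longest identical run is 136 bases. No other pair among the 6 genes shares a run of 50 bases. The 60 coding bases below were picked as the ungapped window of that length with the most differences. The pair differs there at 10 places, in capitals.
Chil3: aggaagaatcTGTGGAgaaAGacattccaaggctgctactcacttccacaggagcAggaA
Chil4: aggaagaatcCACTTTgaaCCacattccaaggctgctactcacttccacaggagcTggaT
The window lies at chr3:106155714-106155773 in Chil3 and chr3:106206041-106206100 in Chil4, both on the minus strand. The read length and the handling of reads that match both genes are not given in the sources used here.

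Chil3 transcripts reached 2976, 2867 and 2857 TPM in M2 libraries, against 3.64, 3.46 and 3.71 TPM in M0 libraries. The M2 libraries stood close together and far above every M0 library, so that the groups did not overlap. The means were 2900 ± 65.5 TPM in M2 and 3.61 ± 0.128 TPM in M0 cells (SD, n = 3 each), an 804-fold difference. Chil3 (transcript NM_009892, mm10 chr3:106147554-106167564, minus strand, 11 exons) took 0.376% to 0.391% of all gene reads in M2 libraries, where it stood at ranks 12, 14 and 13 of 25124 entries. In M0 libraries it stood at ranks 9215, 9392 and 9130.

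Differences were tested by limma-trend on log2(TPM + 1) over the 11235 genes with at least 1 TPM in at least 3 libraries, with Benjamini-Hochberg adjustment and a threshold of 0.05. A fold change on this scale understates that of genes with low TPM. In this fit 62.9% of the genes passed, 17.7% higher in M2 and 45.3% lower in M2. The log2 fold change of Chil3 was 9.30 (SE 0.04, 95% interval 9.21 to 9.39, adjusted p = 1.1e-15). Only 1 of the 1983 rising genes rose more on this scale. Without M0 replicate 2, the M0 library that stood apart, the log2 fold changes were 9.28 for Chil3, 2.14 for Chil4 and 0.44 for Chid1.

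M2 libraries held 66475, 65641 and 71483 Chil3 reads, against 85, 80 and 81 reads in M0 libraries. The ratio of reads per library total was 833, with a 95% interval of 735 to 948 that covers counting error only. Among M2 libraries Chil3 reads varied by more than counting (chi-square per degree of freedom 35.0), yet the coefficient of variation in TPM was 2.26%. Among M0 libraries the same chi-square was 0.256.

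**Figure D1:**
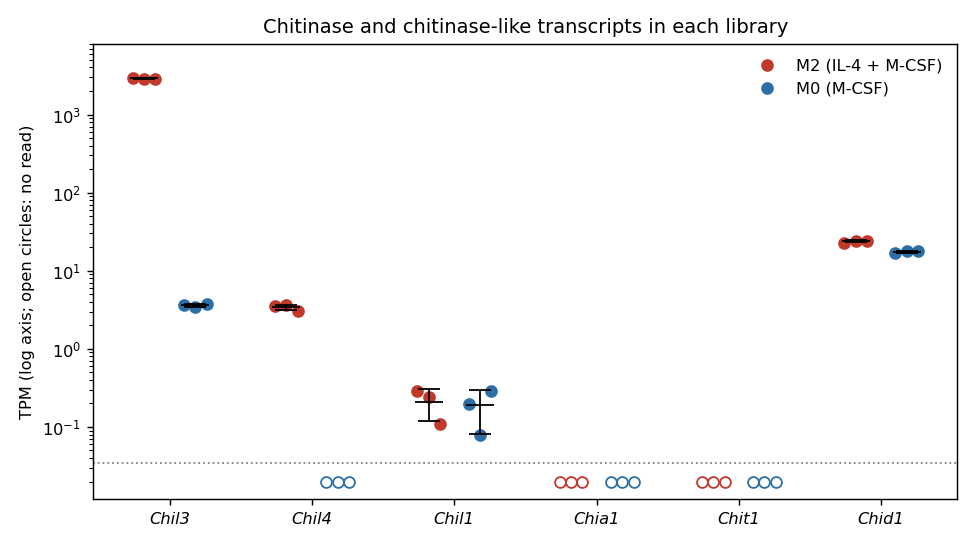
TPM of the 6 genes (log axis) in each library, M2 in red left of M0 in blue, with the mean and SD as black bars and libraries without a read as open circles under the dotted line. Chil3 lies between 2857 and 2976 TPM in M2 and between 3.46 and 3.71 TPM in M0 libraries, Chid1 is higher in all 3 M2 libraries, Chil1 overlaps, and Chia1 and Chit1 have no read anywhere.

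Chil4, the close paralog of Chil3, had 3.51, 3.61 and 3.10 TPM in M2 libraries (77, 81 and 76 reads), against 0 TPM in all 3 M0 libraries. No Chil4 read was found in M0, while each M2 library held over 70. Chil4 (NM_145126, chr3:106201491-106219479, minus strand, 11 exons) averaged 3.41 ± 0.271 TPM in M2 cells (SD, n = 3). Against 0.0448 TPM, the mean that 3 reads over the M0 group would give, it was at least 76.0-fold higher in M2. By limma-trend its log2 fold change was 2.14 (SE 0.09, adjusted p = 1.7e-08), a value set by the pseudocount. It was 5.13 with a pseudocount of 0.1 and 0.75 with 5. Chil4 passed the filter on low values only through its M2 libraries.

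The level of Chil4 in M2 cells was close to the level of Chil3 in M0 cells. Of the reads of the pair, Chil4 held 234 of 203833 in M2 libraries, a share of 0.115% (exact binomial 95% interval 0.101% to 0.130%). The share was 0.116%, 0.123% and 0.106% in the M2 libraries, so that the libraries lay within each other's counting intervals. In M0 libraries Chil4 held 0 of 246 reads, which allows a share of up to 1.22% (exact upper limit 1.49%). At the M2 share, 0.282 Chil4 reads would fall in the M0 libraries. A difference between the folds of the 2 genes was not detectable at this depth. The log2 ratio of Chil3 to Chil4, with 0.1 TPM added to each, was 9.69 ± 0.104 in M2 and 5.21 ± 0.0502 in M0 libraries (SD, n = 3 each). Its difference of 4.48 (exact permutation p = 0.1, two-sided, the smallest that 3 against 3 libraries allow) rests on the added value, since M0 has no Chil4 read. Whether some of the 234 Chil4 reads came from Chil3 transcripts was not tested.

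Chil1, which encodes the chitinase-like lectin BRP-39, the mouse counterpart of human YKL-40, had 0.285, 0.239 and 0.109 TPM in M2 libraries, against 0.195, 0.079 and 0.292 TPM in M0 libraries. The groups overlapped throughout. Chil1 (NM_007695, chr1:134182404-134190031, plus strand, 10 exons) was counted from 16 reads in M2 and 14 reads in M0, so that it fell under the filter. The ratio of reads was 1.15 with a counting interval of 0.526 to 2.55 (exact permutation p = 0.8 for TPM, two-sided, n = 3 each). Without the filter its fitted log2 fold change was 0.03 (adjusted p = 0.815 by limma-trend).

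Neither active chitinase was detected. Chia1 (NM_023186, chr3:106113382-106132116, plus strand, 11 exons) and Chit1 (NM_027979, chr1:134111242-134151540, plus strand, 12 exons) had 0 reads in all 6 libraries. Chitotriosidase is a well-known product of activated macrophages in humans. For Chia1 the absence of reads allows a mean of up to 0.0431 TPM in M2 and 0.0444 TPM in M0 cells, at 3 reads over each group. For Chit1 the corresponding limits are 0.0362 TPM in M2 and 0.0372 TPM in M0 cells.

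Chid1, also called stabilin-1-interacting chitinase-like protein, is a lysosomal and secreted protein without the catalytic residues. It had 22.9, 24.2 and 24.3 TPM in M2 libraries, against 16.7, 17.8 and 17.8 TPM in M0 libraries. All M2 libraries were above all M0 libraries, which was so or the reverse for 69.4% of tested genes. Chid1 (NM_001142681, chr7:141493136-141539828, minus strand, 13 exons) averaged 23.8 ± 0.756 TPM in M2 and 17.4 ± 0.657 TPM in M0 cells (SD, n = 3 each), a 1.37-fold difference. Its log2 fold change was 0.43 (SE 0.06, 95% interval 0.30 to 0.55, adjusted p = 8.1e-05 by limma-trend), below the median of 0.47 over all rising genes.

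The median log2 fold change over all tested genes was -0.15. After scaling of each library to its median-ratio factor that median was 0.00, 57.1% of genes passed (28.6% higher and 28.5% lower in M2), and Chid1 stood at 0.59 (adjusted p = 1.0e-05) and Chil3 at 9.45. The end of the Chid1 transcript shares 291 exonic bases with Tspan4 on the opposite strand (GENCODE M21). The strand used in counting is not given in the sources used here, so that reads from those bases cannot be assigned to either gene. Tspan4, a tetraspanin gene, had 101 ± 1.35 TPM in M2 and 102 ± 6.95 TPM in M0 cells (SD, n = 3 each) and did not pass.

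The order of levels in M2 cells was Chil3, Chid1, Chil4 and Chil1, and no neighbours in that order overlapped. In M0 cells it was Chid1, Chil3 and Chil1, again without overlap, with the other 3 genes at 0. The 6 genes together had 3002, 2895 and 2885 TPM in M2 libraries, against 20.5, 21.3 and 21.8 TPM in M0 libraries. The means of these sums were 2927 ± 65.0 TPM in M2 and 21.2 ± 0.670 TPM in M0 cells, a ratio of 138 (exact permutation p = 0.1, two-sided, n = 3 each).

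The make-up of the family differed accordingly. Chil3 made up 99.1%, 99.0% and 99.0% of the summed TPM in M2 libraries, against 17.8%, 16.2% and 17.0% in M0 libraries. Chid1 made up 0.764% to 0.843% in M2 libraries, against 81.3% to 83.4% in M0 libraries. Each share separated the groups (exact permutation p = 0.1 each, two-sided, n = 3 each).

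**Figure D2:**
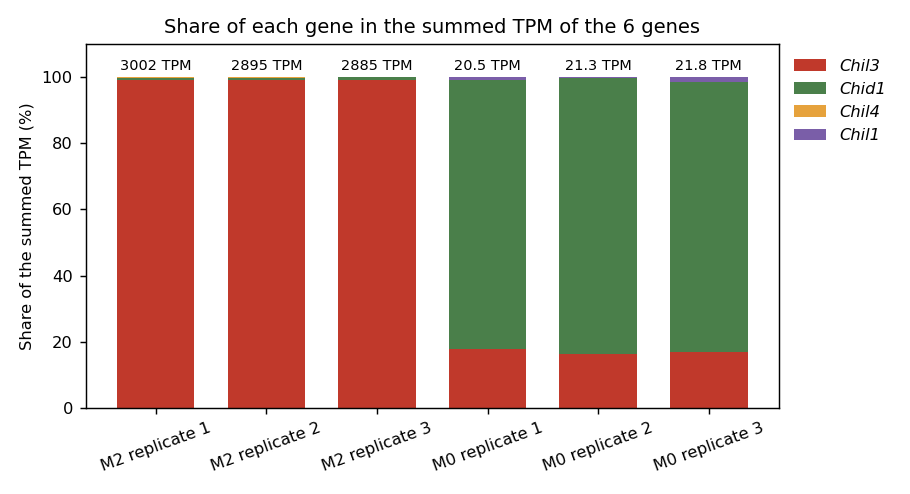
Share of each gene in the summed TPM of the 6 genes (percent) per library, with the sum printed above each bar, M2 libraries left of M0 libraries. Chil3 fills at least 99.0% of each M2 bar, and Chid1 fills 81.3% to 83.4% of each M0 bar.

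**Figure D3:**
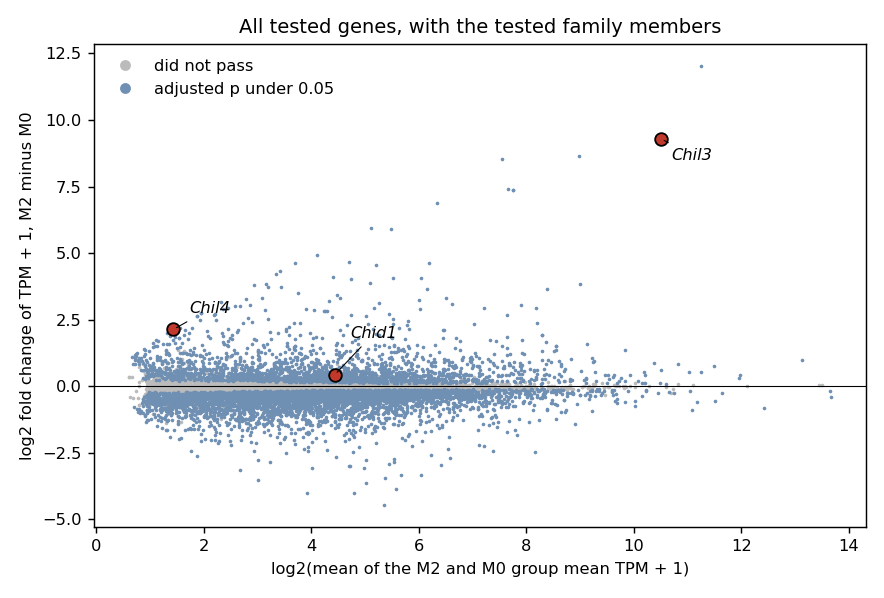
Log2 fold change of TPM + 1 (M2 minus M0) of the 11235 tested genes against the log2 of their mean TPM + 1, with the genes that passed in blue and the 3 tested family genes in red. Chil3 at 9.30 lies apart from nearly all genes of like level, while Chid1 at 0.43 lies within the cloud.

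A match to the palindromic STAT-type motif TTCNNNGAA was sought in the 250 bases before the RefSeq starts of the 6 genes. Only the windows of Chil3 and Chil4, which also lie next to each other, held a match. These windows are from RefSeq (GRCm38.p6), are written on the minus strand, from which both genes are read, and end just before the start. Capitals mark the match.
Chil3: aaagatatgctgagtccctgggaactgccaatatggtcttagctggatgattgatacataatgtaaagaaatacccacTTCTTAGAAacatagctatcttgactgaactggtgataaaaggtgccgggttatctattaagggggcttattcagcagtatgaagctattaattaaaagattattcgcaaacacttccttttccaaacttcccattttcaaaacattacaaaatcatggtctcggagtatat
Chil4: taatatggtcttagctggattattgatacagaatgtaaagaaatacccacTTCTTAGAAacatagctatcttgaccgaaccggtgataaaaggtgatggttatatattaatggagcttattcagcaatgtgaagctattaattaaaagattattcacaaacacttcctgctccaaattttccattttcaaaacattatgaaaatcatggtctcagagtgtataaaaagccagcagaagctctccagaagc
The Chil3 window is chr3:106167565-106167814 and the Chil4 window chr3:106219480-106219729. The match TTCTTAGAA begins 172 bases before the start of Chil3 and 200 bases before that of Chil4. The windows differ at 20 of 221 bases aligned without a gap, an identity of 72.0% over the 279 columns of the alignment. Of all 32851 RefSeq windows, 7.02% hold TTCNNNGAA. The longer STAT-type motif TTCNNNNGAA, in 5.85% of windows, was found in no window of the 6 genes. Chid1 had 3 windows, for different starts. The Chil1 window (chr1:134181906-134182155) ends upstream of the Chil1 entry, which starts at 134182404, so that the bases just before that start were not searched. Both motifs read the same on either strand, and a match describes letters, not binding by STAT6 or another factor.

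Chil3 and Chil4 lie in a block of family 18 genes on chromosome 3, with the start of Chil4 51.9 kb upstream of that of Chil3. Of the 9 other entries within 250 kb of the Chil3 start, 4 were tested and 3 passed, as did 62.9% of all tested genes. Chil4 rose, while Wdr77, a methylosome subunit gene, fell to 9.71 ± 0.468 TPM in M2, against 14.7 ± 1.06 TPM in M0 cells (log2 fold change -0.55, adjusted p = 8.2e-05). I830077J02Rik also fell (log2 fold change -0.36, adjusted p = 0.0488), a call lost after median scaling, and Atp5f1, an ATP synthase subunit gene, did not pass (-0.10). The untested entries were Chia1, Chil5, Chil6, Ovgp1 and Pifo. Ovgp1, which encodes the oviductal glycoprotein, and the chitinase-like genes Chil5 and Chil6 averaged at most 0.0793 TPM in either group. Of the other family 18 genes fixed for comparison, only Ctbs, the lysosomal di-N-acetylchitobiase, was tested, and it had 9.12 ± 0.552 TPM in M2 and 9.64 ± 0.898 TPM in M0 cells and did not pass (log2 fold change -0.07, adjusted p = 0.459).

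Around Chid1 on chromosome 7 the picture was denser. Of 24 other entries within 250 kb, 17 were tested. Among these 7 rose and 3 fell (17.7% and 45.3% of all tested genes), 7 missed the threshold, and the median log2 fold change was 0.30. After median scaling 9 rose and 2 fell (28.6% and 28.5% of all tested genes). Among the rises, Gm16982 lies within the span of Ap2a2, and Gm10575 overlaps Cracr2b and Cd151. Mir7063, which passed only after median scaling, also lies within Ap2a2 and rests on 15 reads in M2 and 9 reads in M0. These counts are thus not of wholly separate genes. The adaptor subunit gene Ap2a2, 22.4 kb upstream, had 115 ± 0.599 TPM in M2 and 60.5 ± 2.10 TPM in M0 cells (log2 fold change 0.92). Cd151, a tetraspanin gene, and Pnpla2, the adipose triglyceride lipase gene, rose with log2 fold changes of 0.81 and 0.75. Slc25a22, a mitochondrial glutamate carrier gene, fell to 11.6 ± 0.690 TPM in M2, against 22.9 ± 2.18 TPM in M0 cells (log2 fold change -0.92). The neighbours of Chid1 thus moved in both directions. The 4 named here were chosen for the largest log2 fold changes in size, and other tested neighbours, such as Tspan4 (-0.02), changed less than Chid1 (0.43).

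**Figure D4:**
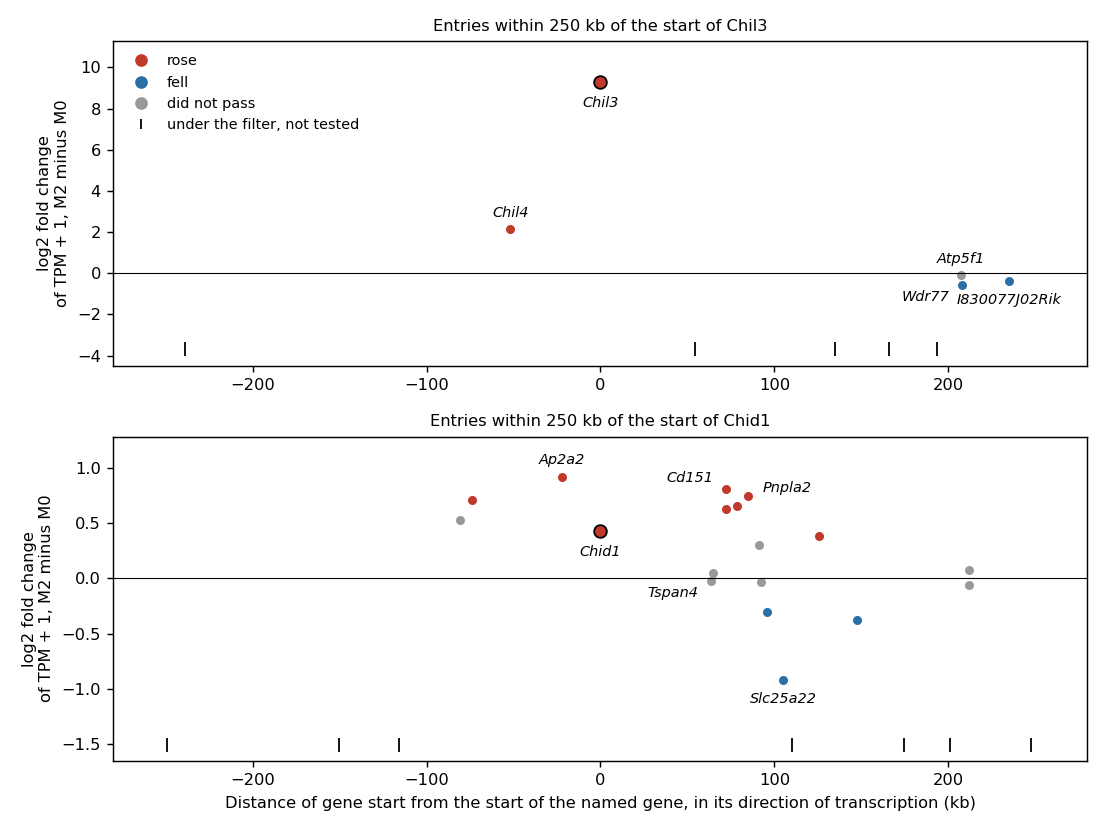
Log2 fold change of TPM + 1 (M2 minus M0) of entries within 250 kb of Chil3 (top) and Chid1 (bottom) against the distance of their start in kb, positive downstream, with untested entries as ticks. Around Chil3, Chil4 at 2.14 is the only other rise, while around Chid1 both rises and falls are seen.

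Chitinase products are broken down to N-acetylglucosamine in the lysosome and reused, a pathway that also serves glycoproteins. Of 14 genes of this salvage list, all tested, 4 rose and 2 fell, while 8 missed the threshold, at a median log2 fold change of 0.05. Of all tested genes 17.7% rose and 45.3% fell. Nagk, the kinase that recaptures N-acetylglucosamine, had 90.8 ± 0.723 TPM in M2 and 63.6 ± 1.49 TPM in M0 cells (log2 fold change 0.51). Hexa, a subunit of the hexosaminidase that trims N-acetylglucosamine from chain ends, had 813 ± 4.77 TPM in M2 and 667 ± 25.1 TPM in M0 cells (0.29). Amdhd2, which encodes a deacetylase, rose by 0.25 on the log2 scale. After median scaling 9 of the 14 rose and the other 5 did not pass, where 28.6% of all tested genes rose. The falls of Oga and Gnpda1 (-0.17 and -0.13) were lost on that scale. The 2 falls were also lost without M2 replicate 1 and without M2 replicate 3, and 1 was lost without M2 replicate 2 and without M0 replicate 1.

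UDP-N-acetylglucosamine, the donor sugar, is made by a short chain of enzymes. Of 7 genes of its synthesis and use, 6 were tested: 4 fell, 1 rose and 1 missed the threshold, at a median log2 fold change of -0.22, against 45.3% of all tested genes that fell. Uap1, which makes UDP-N-acetylglucosamine, fell to 7.77 ± 0.412 TPM in M2, against 11.5 ± 0.366 TPM in M0 cells (log2 fold change -0.51). Pgm3, the mutase before it, fell by 0.34 on the log2 scale, Uap1l1 by 0.24 and Gnpnat1 by 0.20. Ogt, the transferase that puts N-acetylglucosamine on intracellular proteins, rose by 0.22, a call lost without M2 replicate 1. After median scaling 2 of the 4 falls, Uap1 and Pgm3, still passed. In place of 4 falls, 3 passed without M2 replicate 1, 2 or 3, without M0 replicate 1 or 2, with replicate number as a block and by limma-voom on recovered reads. Gfpt1, the entry enzyme, did not pass, and Gfpt2 was under the filter at 0.0583 TPM in M2 and 0.136 TPM in M0 cells.

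Genes of proteins reported to bind chitinase-like proteins moved in both directions. Of 6 such genes, 4 were tested, of which 2 rose and 2 fell, where 17.7% of all tested genes rose and 45.3% fell. Stab1, the scavenger receptor stabilin-1 that in human macrophages sorts the CHID1 protein to lysosomes, fell to 107 ± 5.0 TPM in M2, against 335 ± 6.98 TPM in M0 cells (log2 fold change -1.63, adjusted p = 7.4e-10). It thus fell while Chid1 rose, before and after median scaling. Cd44, the hyaluronan receptor, rose by 0.49. Lgals3, the lectin galectin-3, had 4594 ± 33.9 TPM in M2 and 3422 ± 178 TPM in M0 cells (0.43). Tmem219, reported as a coreceptor of Chil1, fell by 0.19 on the log2 scale. That call was lost after median scaling (-0.02) and without M2 replicate 1, M2 replicate 3 or M0 replicate 1. Il13ra2, the decoy receptor reported to bind Chil1, was under the filter at 0.0760 TPM in M2 and 0 TPM in M0 cells, and Ptgdr2 at 0.693 TPM in M2 and 0.696 TPM in M0 cells.

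Receptors reported to sense chitin also split. Of 7 genes, 6 were tested. Rises were seen for 2 and falls for 3, where 17.7% of all tested genes rose and 45.3% fell. The counts were the same after median scaling, where 28.6% rose and 28.5% fell, and 57.1% to 62.9% of all tested genes passed in either direction. Clec7a, which encodes the beta-glucan receptor dectin-1, had 510 ± 22.8 TPM in M2 and 65.4 ± 7.26 TPM in M0 cells (log2 fold change 2.95, adjusted p = 4.9e-10). Mrc1, the mannose receptor, had 520 ± 7.42 TPM in M2 and 207 ± 24.6 TPM in M0 cells (1.33). Tlr2, a Toll-like receptor for microbial lipopeptides, fell to 6.05 ± 0.693 TPM in M2, against 26.1 ± 1.61 TPM in M0 cells (-1.94). Lysmd3, which encodes a membrane protein with a LysM domain, fell to 4.21 ± 0.307 TPM in M2, against 8.61 ± 0.844 TPM in M0 cells (-0.88). Nod2, a cytosolic sensor, fell with a log2 fold change of -0.56. Tlr9 did not pass (-0.11), and Fibcd1 was under the filter with at most 0.00967 TPM on average.

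**Figure D5:**
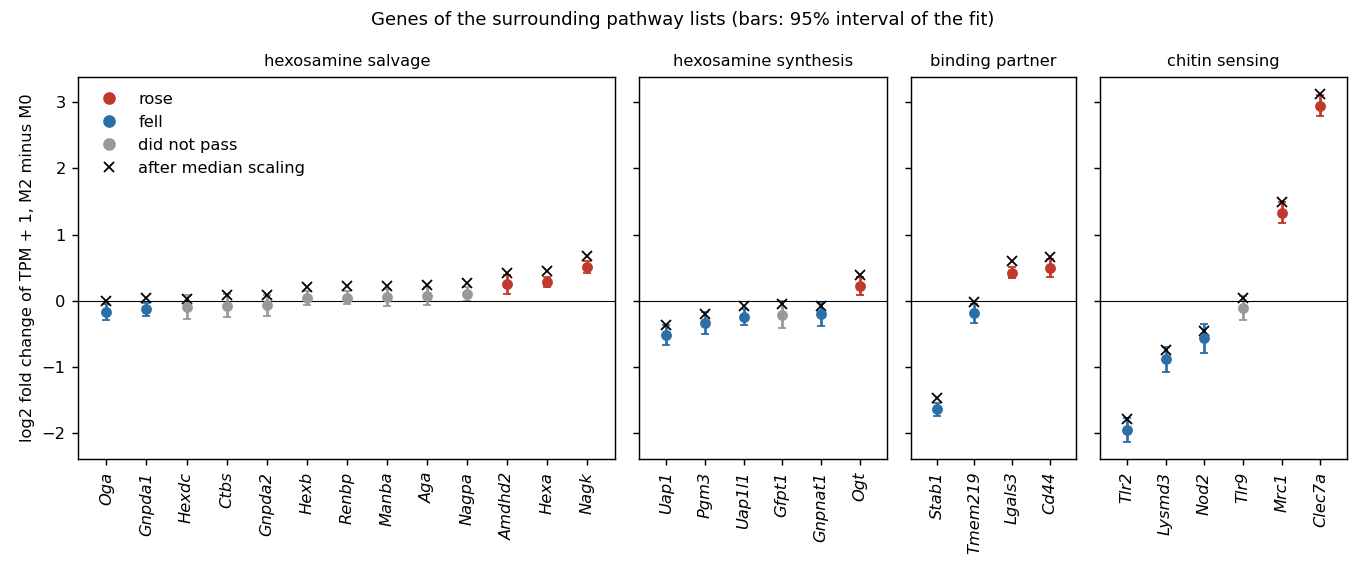
Log2 fold change of TPM + 1 (M2 minus M0) of genes of 4 lists (1 tested salvage gene is not shown), with 95% intervals of the fit as bars and the value after median scaling as a cross. Clec7a at 2.95 and Mrc1 at 1.33 stand highest, Tlr2 at -1.94 and Stab1 at -1.63 lowest, and the salvage genes shown lie between -0.17 and 0.51.

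Other marrow cells are known to make chitinase-like proteins, among them neutrophil precursors, which make Chil3 and Chil1. The neutrophil list summed to 52.6 to 60.6 TPM in M2 libraries, against 53.2 to 63.5 TPM in M0 libraries, so that its level overlapped between the groups. Of its 14 genes 8 were tested. Lcn2 fell and the other 7 did not pass, whereas after median scaling Mmp8 rose and the other 7 did not pass. Of all tested genes 62.9% passed in either direction, and 57.1% after median scaling. The granule genes Elane, Mpo, Prtn3 and Ctsg averaged under 1 TPM in both groups. Other genes of the list stood higher: S100a8 averaged 13.1 TPM in M2 and 14.6 TPM in M0 cells, S100a9 13.9 and 15.0 TPM, and Mmp8 14.3 and 12.9 TPM. The eosinophil list summed to 8.13 to 8.84 TPM in M2, against 14.8 to 16.4 TPM in M0 libraries, with Ccr3 lower and Siglecf higher in M2 and Epx at 0 in every library. The monocyte list summed to 3.89 to 4.82 TPM in M2, against 6.70 to 8.91 TPM in M0 libraries. The dendritic cell list summed to 1.22 to 1.46 TPM in M2 and 0.365 to 0.562 TPM in M0 libraries. Its genes split, with Zbtb46 at 1.06 TPM in M2 and 0.077 TPM in M0 cells, and Xcr1 at 0.103 and 0.240 TPM. The stromal list summed to 2.97 to 3.49 TPM in M2, against 4.42 to 4.80 TPM in M0 libraries. The mast cell and basophil, B cell, and T and NK cell lists stayed under 1 TPM in sum. The part of the lists that differed in the results above was not tested.

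Likeness was ranked by the smallest root-mean-square difference of log2(TPM + 1) over the 6 libraries. The tested genes most like Chil3 in level were Arg1, the arginase gene (1.24), and Retnla, a resistin-like gene (1.51). Next came the ribonuclease entries Ear3, Ear12 and Ear2 (2.04, 2.04 and 2.13). Ear3 and Ear12 held nearly the same number of reads (9239 and 9230 in M2, 34 and 34 in M0), against 13133 and 44 for Ear2. Whether these entries share reads was not tested. Arg1 averaged 1009 ± 7.40 TPM in M2 and 1.55 ± 0.328 TPM in M0 cells. The genes most like Chil4 were Apol7c (0.108), Adipoq (0.121) and Ffar4 (0.129), an apolipoprotein L, the adiponectin and a fatty acid receptor gene. Adipoq had 2.73, 3.31 and 2.93 TPM in M2 libraries and no read in the M0 libraries. The genes most like Chid1 were Nudt2 (0.0490), Wdr45 (0.0608) and 2900097C17Rik (0.0700). With 2 groups, such likeness rests on the 2 levels alone.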

How the data were processed

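Groups and replicate numbers of the 6 libraries were taken from the sample titles. The submitters' processing notes name STAR, bcl2fastq, DESeq2, HOMER 4.11.1 and the mm10 build. Reads were counted in RefSeq exons, 1 transcript per gene, per the file headers. The authors deposited TPM per library and, in a comparison table, values on a log2 scale whose transformation the file headers do not name, with log2 fold changes and p-values. In 4515 entries the comparison table lists another transcript, as for Chit1, and 3 shifted entries were realigned. Since TPM times transcript length moved in 1 fixed step per library, 99.8% to 99.9% of nonzero values were whole reads within 0.1 read. No read was found for 6612 entries. Recovered reads were 89.8% to 90.9% of the tag totals in the headers, and intervals and floors (95%, 3 reads) cover counting error only.

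For TPM, limma-trend (R 4.3.3, limma 3.58.1, robust, two-sided) was run on log2(TPM + 1). A check on simulated data gave all genes and libraries the same extra spread and all libraries the same total. It therefore does not cover an M0 library that stands apart or the choice of scaling. Single values had exact permutation tests. Alternatives were pseudocounts of 0.1 and 5, no filter, at least 50 recovered reads in 3 libraries, median scaling (factors 0.942 to 1.09), limma-voom on recovered reads, the authors' deposited log2 values, a replicate block and each library left out. Identities came from global alignments (biopython 1.88), and exons and coding bases from GENCODE M21, matched for all 6 genes by RefSeq identifier. Python 3.11.15, numpy 2.4.6, pandas 2.3.3, scipy 1.17.1 and matplotlib 3.10.9 were used.

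The genes, lists and alternatives were chosen with earlier results of these data known. The text names every one of the 6 genes, up to 4 passing members with the largest change and the untested members of each list, the 5 genes most like Chil3 and 3 most like each other tested gene, and up to 4 tested chromosome neighbours. Further neighbours are named where entries overlap, and further cell type markers for their level. The values of 1 tested salvage gene are not reported here, although it is in that list's counts. Protein sequences were not used here.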

Additional observations from a re-analysis of the deposited data

How the results depend on the processing

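Chil3 and Chid1 kept their direction and their call under all 14 alternatives, with log2 fold changes of 8.40 to 9.70 for Chil3 and 0.36 to 0.59 for Chid1. Chil4 also passed under each, at 0.75 to 7.30. Since M0 libraries held no Chil4 read, its direction could not reverse and the size depends on the value added. Leaving out each library in turn gave 9.28 to 9.32 for Chil3, 2.10 to 2.19 for Chil4 and 0.40 to 0.45 for Chid1 (adjusted p by limma-trend from 8.9e-05 to 9.9e-04). Over the same omissions 1743 to 2217 genes rose and 4457 to 5239 fell, 4 to 5 salvage genes rose and 0 to 2 fell, 0 to 1 synthesis genes rose and 3 to 4 fell, and 2 binding partners rose and 1 to 2 fell. The summed TPM differed by 2869 to 2928, the Chil3 share by 81.7 to 82.4 percentage points and the log2 ratio of Chil3 to Chil4 by 4.43 to 4.53. That ratio differed by 7.65 with a pseudocount of 5.

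Median scaling gave 3208 rising and 3205 falling genes, against 1983 and 5088 on the deposited scale, and the authors' log2-scale values gave 3318 and 3323. Under both, 9 salvage genes rose and 0 fell by limma-trend (also 0 at an unadjusted p under 0.05), 2 synthesis genes fell and 1 binding partner fell. By limma-voom 1 salvage gene, 3 synthesis genes and 1 binding partner fell, and without the filter 1 binding partner fell. In the authors' deposited table the log2 fold changes were 9.72 for Chil3, 4.79 for Chil4, 0.18 for Chil1 and 0.62 for Chid1. The cause of these differences was not tested. The share of Chil3 runs found in Chil4 was 26.8% for 36 bases and 8.53% for 75 bases.

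Same-numbered libraries did not deviate together (correlations of 0.005, -0.0049 and -0.043), so that the numbers were not taken to pair libraries. With replicate number as a block, Chil3 stood at 9.30, Chil4 at 2.14 and Chid1 at 0.43 (adjusted p = 1.9e-04), and 1953 genes rose and 4963 fell. Depth limits Chia1 and Chit1 to floors of 0.0362 to 0.0444 TPM and Chil1 to a count ratio within 0.526 to 2.55.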

Other observations

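Chil1 and Chit1 lie near each other on chromosome 1, in a region where other genes did change. Btg2, an antiproliferative gene 32.1 kb upstream of Chit1, had 10.8 ± 0.697 TPM in M2 and 3.85 ± 0.220 TPM in M0 cells (SD, n = 3 each; log2 fold change 1.28, adjusted p = 2.2e-07 by limma-trend). Cyb5r1, a cytochrome b5 reductase gene, fell to 23.3 ± 0.794 TPM in M2, against 45.0 ± 1.84 TPM in M0 cells (-0.92). Of 12 other entries within 250 kb of Chil1, 5 were tested, of which 2 rose and 3 fell (17.7% and 45.3% of all tested genes), and the fall of Adipor1 was lost after median scaling (adjusted p = 0.139 by limma-trend). On chromosome 3, 10 other entries lay within 250 kb of Chia1. Of the 7 tested, Chil3 and Chil4 rose, 4 fell (45.3% of all tested genes did) and 1 missed the threshold. After median scaling 3 of the 4 falls passed, and that of I830077J02Rik was lost (adjusted p = 0.173 by limma-trend). Adora3, the adenosine A3 receptor gene, was among those that fell, with 0.951 ± 0.310 TPM in M2 and 1.76 ± 0.162 TPM in M0 cells (-0.51). Its entry lies within the span of Tmigd3, which also fell (-0.41), so that the 4 falls are not of wholly separate genes.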
